A study of Mus musculus with 4 samples.

Results

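The sites of the chromatin remodeller CHD8 on mouse chromosome 11 were described along the chromosome and set against the other 18 autosomes. All peaks on chromosome 11 were taken, except those with a summit from 96 to 98 Mb. That left 1718 of 22706 peaks in replicate 1 (7.57% of the list) and 2353 of 31002 in replicate 2 (7.59%). The stretch left out held 106 and 127 peaks. Peaks of the replicates that overlapped by at least 1 bp were joined into shared regions, of which chromosome 11 held 1345 and the other autosomes 16124. The chromosome was chosen by its number of peaks per Mb in these lists, so its density is a description and carries no test.

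The study used mouse embryonic stem cells grown on gelatin in 2i medium, in which inhibitors of MEK and GSK3 hold the cells in a naive pluripotent state. Both copies of Chd8 carried a 3xFLAG tag at the C terminus of the protein. The series held 2 ChIP samples, taken with the antibody ANTI-FLAG M2, and 2 input samples of the same cell type without antibody, all from tagged cells in 1 condition. Cells without the tag were not analysed here. The labels name neither separate cultures nor the number of clones, so differences between the replicates may be technical only.

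CHD8 belongs to the chromodomain helicase family, enzymes that use ATP to slide or evict nucleosomes. It is known for binding near active promoters and for restraining Wnt/beta-catenin and p53 target genes, and mutations in the human gene are a recurrent cause of autism. Mouse chromosome 11 is known as a gene-dense chromosome. Positions are those of the deposited lists, in mm9 and 1-based. Neither sequence nor annotation of that build was used here, so regions are named by position, no peak was assigned to a gene, and no sequence is printed.

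CHD8 covered chromosome 11 more densely than any other autosome, in both replicates. Replicate 1 had 14.7 peaks per Mb on chromosome 11 (95% exact Poisson interval 14.03 to 15.4) and 8.98 per Mb on the other autosomes. Replicate 2 had 20.2 per Mb (19.3 to 21.0) against 12.3. The ratio was 1.64 in each list. The next autosome in both lists was chromosome 19, with 12.6 and 16.8 peaks per Mb. Shared regions numbered 11.5 per Mb on chromosome 11 (10.9 to 12.2) and 7.06 on the other autosomes, a ratio of 1.63 (exact binomial interval 1.54 to 1.72). Peaks covered 1.05% of the chromosome in replicate 1 and 1.56% in replicate 2, against 0.607% and 0.906% elsewhere. These intervals, and those below, cover counting error only.

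Counted per gene, chromosome 11 stood in the middle of the autosomes. The gene table of assembly GRCm38.p6, used here only for the chromosome of each gene, lists 1609 protein-coding genes on chromosome 11, a number exceeded on chromosomes 7 and 2. The whole chromosome, with the stretch from 96 to 98 Mb, held 1427 shared regions, or 88.7 for every 100 protein-coding genes. The other autosomes together held 84.6, a ratio of 1.05. They ranged from 61.9 on chromosome 7 to 112 on chromosome 8, and chromosome 11 ranked 9 of 19. Chromosome 19, next in density per Mb, had 83.1, and chromosome 17 had 81.4. Which genes carry the regions was not analysed, so a region per gene here is a ratio of totals.

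**Figure D1:**
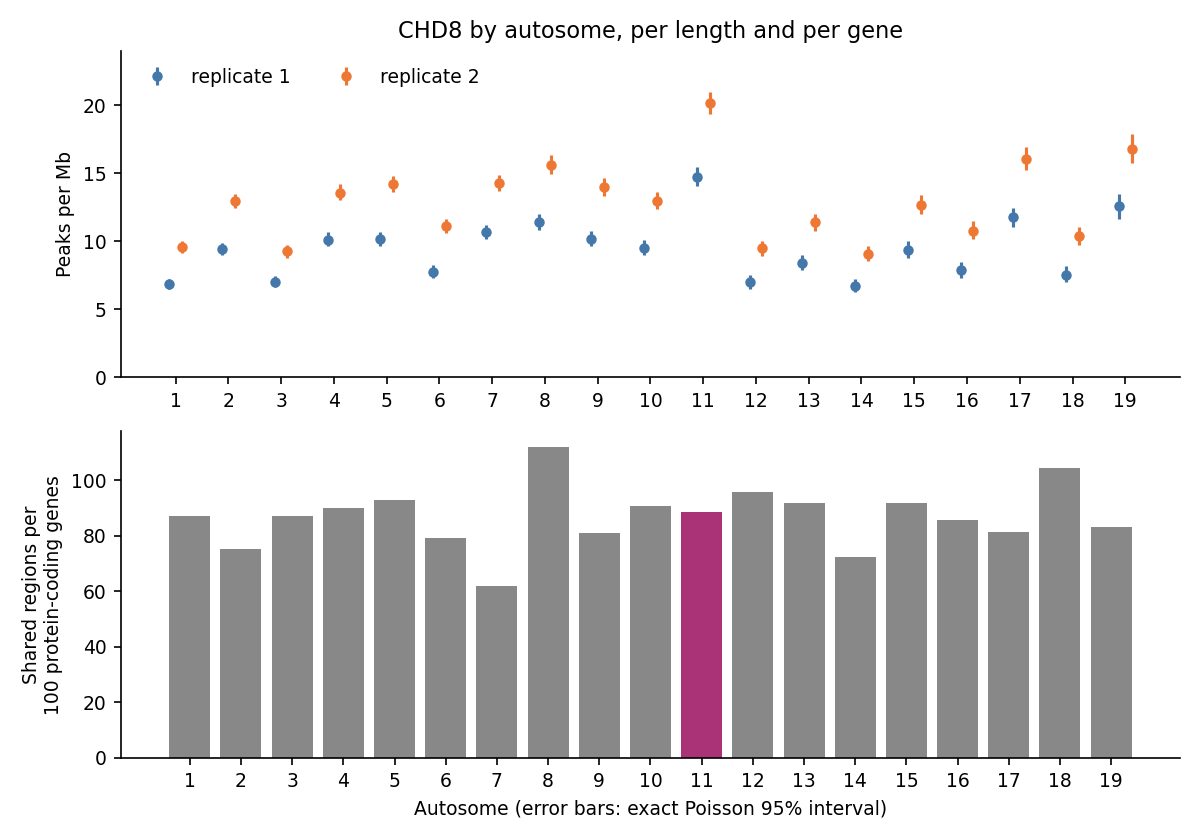
Top, peaks per Mb on each autosome in replicates 1 and 2, with exact Poisson 95% intervals; bottom, shared regions for every 100 protein-coding genes, with chromosome 11 coloured. Chromosome 11 is highest per Mb, with 14.7 and 20.2 peaks, and has 88.7 regions for every 100 genes, within the range of 61.9 to 112 of the other autosomes.

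Chromosome 11 had more windows with 10 or more shared regions than the other autosomes, and fewer thinly filled ones. In 115 full windows of 1 Mb, chromosome 11 had a median of 9 shared regions, against 4 in the 2263 windows of the other autosomes. The median number of peaks per window was 11 in replicate 1 and 16 in replicate 2, against 6 and 7 elsewhere. Windows with at least 20 shared regions, called dense here, numbered 24 of 115 on chromosome 11, which is 20.9% (95% Wilson interval 14.4 to 29.2). Over all autosomal windows the share was 9.08%, and chromosome 17 alone had a higher one, 22.0%. That rank leaves out the stretch from 96 to 98 Mb, on chromosome 11 only, and could change with it. With the stretch chromosome 11 held 1427 shared regions, and 1345 without. The share moves with what is counted: with the peaks of replicate 2 alone it was 46.1% on chromosome 11 and 22.8% elsewhere, and with 50% reciprocal overlap 10.4% and 3.58%. Windows with 10 to 19 regions made up 27.0% on chromosome 11 and 18.3% elsewhere, and those with 1 to 4 made up 19.1% and 31.4%. Windows without any shared region numbered 16 of 115, or 13.9% (8.75 to 21.4), where all autosomal windows gave 19.1%. Outside the stretch left out, the fullest window of chromosome 11 held 43 regions, and 6 autosomes had a fuller one, up to 64 on chromosome 13. The windows holding 50% of the regions made up 20% of all windows on chromosome 11, more than on any other autosome, where they made up 12.8 to 19.3%. Another 30 regions lay outside full windows, at the chromosome ends.

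**Figure D2:**
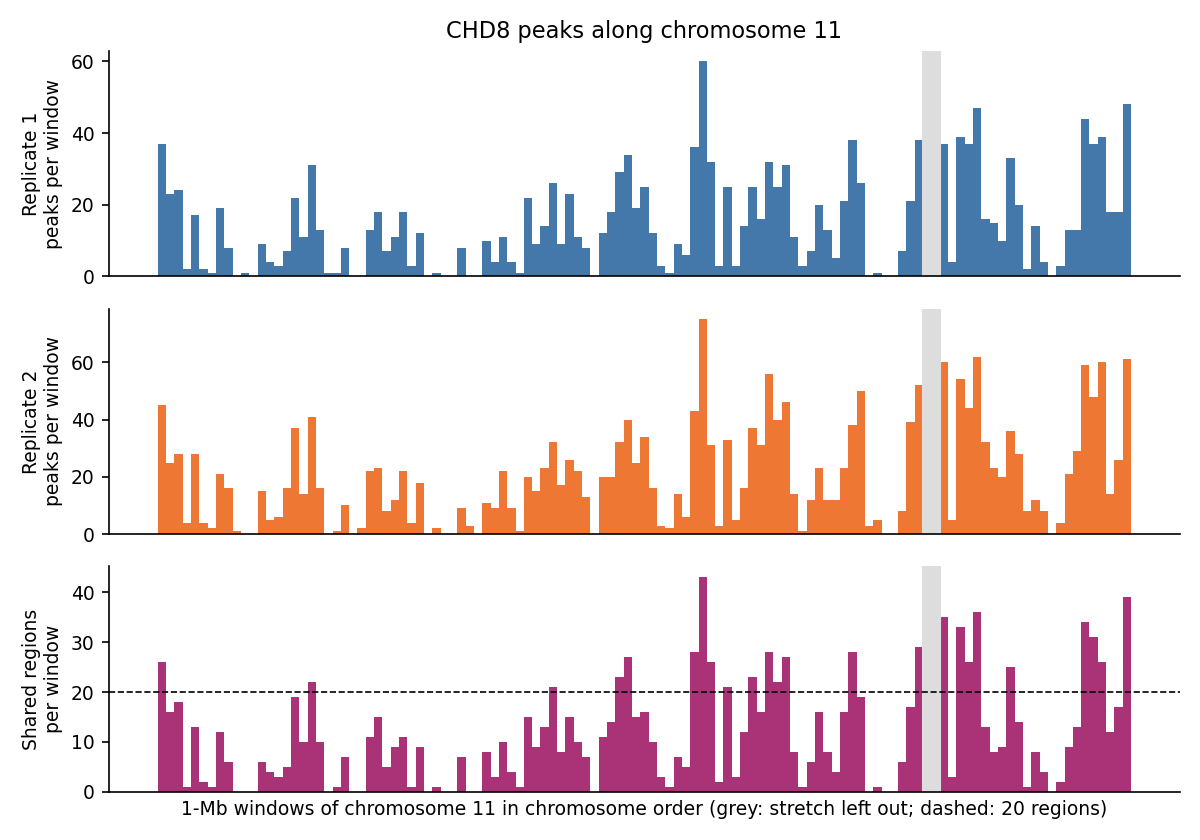
Replicate 1 peaks, replicate 2 peaks and shared regions in each 1-Mb window of chromosome 11, in chromosome order from the first full window, with the stretch left out in grey and a dashed line at 20 regions. Both replicates rise and fall together, and 19 of the 24 dense windows lie in the distal 58 windows.

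The distal part of chromosome 11 carried most of the regions. The first 57 full windows held 450 shared regions (580 replicate 1 peaks and 792 replicate 2 peaks), and the 58 windows from 61 Mb on held 865 (1099 and 1522). The mean was 7.89 regions per window in the first and 14.9 in the second set, a ratio of 1.89. The distal mean was the highest among the 19 autosomes. The proximal mean ranked 5. The ratio itself was not particular to chromosome 11: it ranked 6 of 19 and reached 2.96 on chromosome 15. Of the dense windows 5 were proximal and 19 distal, and of the empty windows 12 were proximal and 4 distal. The exact split point follows from the number of windows, not from a boundary seen in the data.

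By stretches of 20 Mb the density was lowest up to 40 Mb and highest from 60 to 80 and from 100 to 120 Mb. Up to 20 Mb it was 7.06 shared regions per Mb over 16 windows (5.82 to 8.49). From 20 to 40 Mb it was 6.55 (5.48 to 7.77), with 6 empty windows. From 40 to 60 Mb it was 8.95 (7.69 to 10.4). From 60 to 80 Mb it reached 16.8 (15.0 to 18.6), with 9 dense windows and no empty one. From 80 to 100 Mb, where 18 windows remained, it was 10.9 (9.47 to 12.6). From 100 to 120 Mb it was 16.1 (14.3 to 17.9), with 7 dense windows. The intervals of the stretches from 60 to 80 and from 100 to 120 Mb overlapped each other and no other up to 120 Mb. They treat regions as independent counts, though neighbouring windows were alike, so this describes the counts and is no test between stretches. The stretch from 80 to 100 Mb was counted without the part from 96 to 98 Mb. Its density and interval hold without that part only. Median fold enrichment lay between 4.88 and 5.30 in replicate 1 and between 5.92 and 6.14 in replicate 2 over these 6 stretches. The last full window, from 120 to 121 Mb, had both a higher density, 39 regions, and higher medians, 5.63 and 6.86. By window density, the replicate 2 median on chromosome 11 was 5.32 in windows with 1 to 4 regions and 6.06 in dense ones, while in replicate 1 it was 5.18 and 4.96.

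Many of the dense windows lay side by side in blocks. The fullest lay from 69 to 70 Mb, with 60 peaks in replicate 1, 75 in replicate 2 and 43 shared regions. It ranked 11 among all 2378 autosomal windows. Its neighbours were also dense, and the block from 68 to 71 Mb held 97 shared regions. The next window, from 71 to 72 Mb, held 2. The last full window, from 120 to 121 Mb, held 39 regions with 48 and 61 peaks, and ranked 22. A block of 3 windows from 100 to 103 Mb held 95 regions, among them 36 from 102 to 103 Mb (47 and 62 peaks) and 33 from 100 to 101 Mb (39 and 54 peaks). Another block of 3 from 115 to 118 Mb held 91 regions, with 34 from 115 to 116 Mb (44 and 59 peaks) and 31 from 116 to 117 Mb (37 and 48 peaks). One more block of 3, from 77 to 80 Mb, held 77, with 28 from 77 to 78 Mb (32 and 56 peaks). The windows on either side of the stretch left out were dense as well. That from 95 to 96 Mb held 29 regions (38 and 52 peaks), and that from 98 to 99 Mb held 35 (37 and 60 peaks). The windows from 68 to 69 Mb (36 and 43 peaks) and from 87 to 88 Mb (38 and 38 peaks) also held 28 regions, so that 11 windows had at least 28.

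In the proximal part 3 single windows and a pair were dense. They were the windows from 4 to 5 Mb with 26 regions, from 22 to 23 Mb with 22, from 51 to 52 Mb with 21, and the pair from 59 to 61 Mb with 50. Dense windows held 679 of the 1315 regions in full windows, or 51.6%. On the other autosomes 33.1% of the regions lay in such windows. Neighbouring windows tended to be alike. Spearman's rho between the counts of adjacent windows was 0.47 on chromosome 11 over 113 pairs, and it ranged from 0.24 to 0.56 on the other autosomes. Adjacent windows are parts of 1 chromosome in the same libraries, so no p-value is given.

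Stretches without CHD8 were short on chromosome 11. The only run of at least 3 windows without a shared region went from 13 to 16 Mb and held 1 peak of each replicate. Pairs of such windows lay from 27 to 29, 38 to 40, 41 to 43 and 91 to 93 Mb. The longest gap between neighbouring shared regions ran from 12906340 to 16399170, 3493 kb, and held 1 replicate 1 peak and 5 replicate 2 peaks. The next ran from 90500281 to 93745791, 3246 kb, with 0 and 2 peaks inside. The third longest ran from 40569758 to 43239262, 2670 kb, with 0 and 3 peaks inside. On the other autosomes the longest gap lay between 2800 kb on chromosome 9 and 8554 kb on chromosome 6. Absence of a peak means here that none passed the authors' threshold. The lists do not show which of this sequence reads could be aligned to.

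Regions on chromosome 11 had a shorter median gap than those elsewhere and a slightly larger share of gaps under 10 kb, but not of gaps under 2 kb. From one shared region to the next the median distance was 26.4 kb, and 34.2 kb on the other autosomes. Gaps under 10 kb made up 382 of 1343, or 28.4% (Wilson interval 26.1 to 30.9), and 26.2% over all autosomes. Chromosome 11 ranked 4 of 19, so this share is near the background. Among the peaks of replicate 2 alone it was 47.9%, and 43.9% elsewhere. Gaps under 2 kb made up 11.1% on chromosome 11 and 11.8% elsewhere. Chains of at least 3 regions with gaps under 10 kb held 311 regions, 23.1% of those on the chromosome, against 19.2% on the other autosomes. Chromosomes 17, 8 and 19 had higher shares. Regions with no neighbour within 10 kb made up 53.7% on chromosome 11 and 57.1% elsewhere.

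The largest chain was singled out after its values were seen. It spanned 22.6 kb from 48629793 to 48652386, with 7 shared regions and 9 peaks in each replicate. Its fold enrichments ran from 2.57 to 23.4 in replicate 1, with a median of 5.18. In replicate 2 they ran from 3.77 to 19.5, with a median of 5.04. In both replicates 1 strong region thus stood among weaker ones. A chain of 6 from 68923897 to 68948138 had no strong member, and its folds ran from 4.05 to 6.31 and from 2.77 to 7.93. Another chain of 6 from 77978087 to 78008188 had folds from 3.38 to 8.72 and from 4.31 to 9.49. Whether neighbours in a chain are separate sites or 1 site cut by the peak caller was not tested.

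The authors' fold enrichment, the height of the summit over the caller's local background, was much the same on chromosome 11 as elsewhere. The median over all peaks was 4.51 in replicate 1 and 4.71 in replicate 2, and the same 4.51 and 4.71 on the other autosomes. At shared regions it was 4.98 in replicate 1 (quartiles 3.92 and 6.98), against 4.96 on the other autosomes. In replicate 2 it was 6.10 (4.71 and 8.54), against 5.96. The ratio of these medians was 1.01 and 1.02. Regions with a fold of at least 10 made up 157 of 1345 in replicate 1, or 11.7%, where all autosomes gave 10%. In replicate 2 they made up 226, or 16.8%, against 14.7%. Chromosome 11 ranked 4 and 2 of 19 by these shares. Here and in the next paragraphs, 2 replicates allow an exact two-sided permutation test no p under 0.5, which a difference of the same sign in both reaches. None of the differences between chromosome 11 and the other autosomes can therefore pass a threshold of 0.05.

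Chromosome 11 held no excess of the 100 best-ranked regions of the autosomes, and slightly more than its share of the 1000 best-ranked. It held 7.70% of all autosomal shared regions, 0 of the 10 best-ranked, 7 of the 100 best-ranked and 89 of the 1000 best-ranked, or 8.9%. Each region has a rank percentile by the deposited −log10 q in each list, and the poorer of them gave its rank. The 10 best regions of the chromosome were spread over 9 windows.

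The strongest region of chromosome 11 lay at 6099192 to 6100958, 1767 bp wide. Its fold enrichment was 27.5 in replicate 1 and 30.9 in replicate 2, on 121 and 152 summit reads. It stood at rank 25 and rank 8 of the lists. The next, at 75545764 to 75548366, had folds of 27.3 and 28.7, with summits 10 bp apart. The third, at 116350607 to 116352523, had 27.3 and 24.7. These were the best-ranked of the chromosome in both lists together, and the order of replicates was not the same in all of them. Replicate 2 was higher at the first and second, and replicate 1 at the third.

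The region at 80195568 to 80197864 had folds of 25.2 and 25.1, the closest pair of folds among the 10. By summit reads divided by ChIP depth other pairs were closer. Replicate 2 over replicate 1 was 1.07 at this region and 1.01 at 48629793. The region at 103781429 to 103782696 had folds of 24.3 and 23.3. A pair of strong regions lay 14.5 kb apart in the window from 102 to 103 Mb. The first of the pair, at 102975664 to 102978460, had folds of 21.3 and 22.8. The other, at 102992970 to 102995460, had 22.8 and 20.1, and its summits fell on the same base in both replicates. The region at 48629793 to 48631960, the strong member of the largest chain, had 23.4 and 19.5 and was called as 2 peaks in replicate 1. The region at 98219159 to 98220744, near the edge of the stretch left out, had 24.3 and 20.4. The last, at 60267370 to 60268462, had 20.3 and 21.8. Their mean folds ran from 21.1 ± 1.10 to 29.2 ± 2.42 (SD, n = 2). Folds cannot be compared directly between the lists, because the genome-wide background was 3.44 reads in replicate 1 and 2.55 in replicate 2, and the SDs include that difference. The windows of these 10 regions held from 8 shared regions, at 80 Mb, to 36, at 102 Mb, where the median window held 9.

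**Figure D3:**
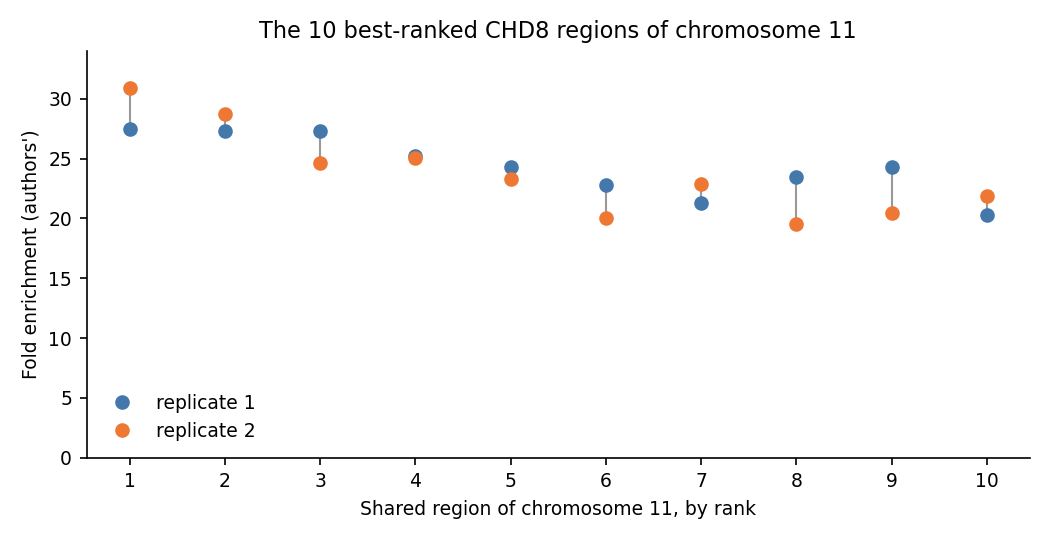
The authors' fold enrichment (linear axis) of the 10 best-ranked shared regions of chromosome 11, 1 point per replicate, joined by a line. Folds lie between 19.5 and 30.9. Replicate 1 is higher in 6 of the 10 by fold, but in 2 of the 10 by depth-normalised summit reads, since the folds rest on different backgrounds.

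The median peak was wider on chromosome 11 than on the other autosomes in both replicates. The median width was 540.5 bp in replicate 1 against 493 bp on the other autosomes, and 533 bp against 513 bp in replicate 2. The mean difference was 33.8 ± 19.4 bp (SD, n = 2; exact two-sided permutation p = 0.5), and 83.5 bp in the higher-scored 50% of the lists. Peaks over 1 kb made up 434 of 1718 in replicate 1, or 25.3% (23.3 to 27.4), where all autosomes gave 22.4%. In replicate 2 they made up 673 of 2353, or 28.6% (26.8 to 30.5), against 25.6%. By these shares chromosome 11 ranked 2 and 1 of 19, but in replicate 2 chromosome 8 also had 28.6%. By median width chromosome 11 ranked 2 in replicate 1 and 5 in replicate 2. Shared regions had a median width of 1075 bp, the highest of the autosomes, where the others ranged from 913 to 1020 bp.

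The widest shared region reached from 33433289 to 33438664, 5376 bp, and consisted of 5 peaks in replicate 1 and 2 in replicate 2. Its best peaks had folds of 8.56 and 13.6, on 37 and 66 summit reads. The next, at 77794775 to 77799207, spanned 4433 bp and was a single peak in each replicate, with folds of 17.8 and 19.4. The third, at 95865446 to 95869809, had 4 peaks in replicate 1 and 1 in replicate 2, with folds of 8.56 and 9.35. Width and strength were thus not tied together in these 3 regions.

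The replicates found the same sites on chromosome 11 as often as elsewhere. In replicate 1 a partner was found for 1537 peaks, 89.5% (87.9 to 90.8), where all autosomes gave 89.1%. In replicate 2 one was found for 1429 peaks, 60.7% (58.7 to 62.7), against 60.8%. The difference from the other autosomes was 0.39 and -0.07 percentage points. Its mean, 0.16, became 1.81 in the higher-scored 50% of the lists and -0.49 with 50% reciprocal overlap. Ranked by the deposited −log10 q over the whole list, the top quintile held 354 chromosome 11 peaks in replicate 1 and 505 in replicate 2, and all of these had a partner. On the other autosomes 99.98% and 99.6% of that quintile had one. In the lowest quintile 187 of 263 replicate 1 peaks had one, or 71.1% (65.4 to 76.2), and 84 of 389 replicate 2 peaks, or 21.6% (17.8 to 26.0). The other autosomes had 72.0% and 23.9%, within these intervals.

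Peaks without a partner were weak and narrow, on chromosome 11 as elsewhere. The 181 of replicate 1 had a median fold of 3.604, and its partnered peaks 4.73. Their widths had medians of 257 and 614 bp. For the 924 of replicate 2 the median fold was 3.91 and that of partnered peaks 5.92, with median widths of 305 and 915 bp. Unpartnered peaks of the other autosomes had median folds of 3.604 and 3.91 and median widths of 253 and 305 bp. The best in replicate 1 lay at 48509878 to 48510114, with a fold of 5.18 (exact Poisson interval 3.33 to 7.73). Behind it stood those at 5641213 to 5641605 and 103517853 to 103518170, both with 4.96 (3.15 to 7.46). The nearest replicate 2 peaks were 20008 to 40271 bp away from these. The best in replicate 2 lay at 102494756 to 102495462, with 7.13 (5.02 to 9.85), and the nearest replicate 1 peak was 28198 bp away. It was followed by 20366671 to 20367229 with 6.87 (4.84 to 9.49) and by 54927718 to 54928346 with 6.68 (4.75 to 9.15). The peak at 20366671 lay 1981 bp from the nearest replicate 1 peak, and that at 54927718 lay 15996 bp from one. All 6 lay far below the strong sites of the chromosome.

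Window by window the replicates drew the same profile. Across the 115 windows of chromosome 11 the numbers of peaks had a Spearman's rho of 0.97 and a Pearson's r of 0.96. The windows share chromosome and libraries, so these describe the lists and carry no p-value. Replicate 2 had more peaks in 91 windows, replicate 1 in 8, and 16 were equal. On the other autosomes these numbers were 1463, 225 and 575 of 2263 windows. In 10 of the chromosome 11 windows neither replicate had a peak, and in 269 elsewhere. Windows with peaks of 1 replicate alone were few, 4 for replicate 2 and 2 for replicate 1, and 81 and 51 elsewhere. Over all windows replicate 2 had 1.38 times as many peaks, and 1.37 times on the other autosomes. The windows where replicate 1 had more included 48 to 49 Mb with 22 against 20 peaks and 118 to 119 Mb with 18 against 14.

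**Figure D4:**
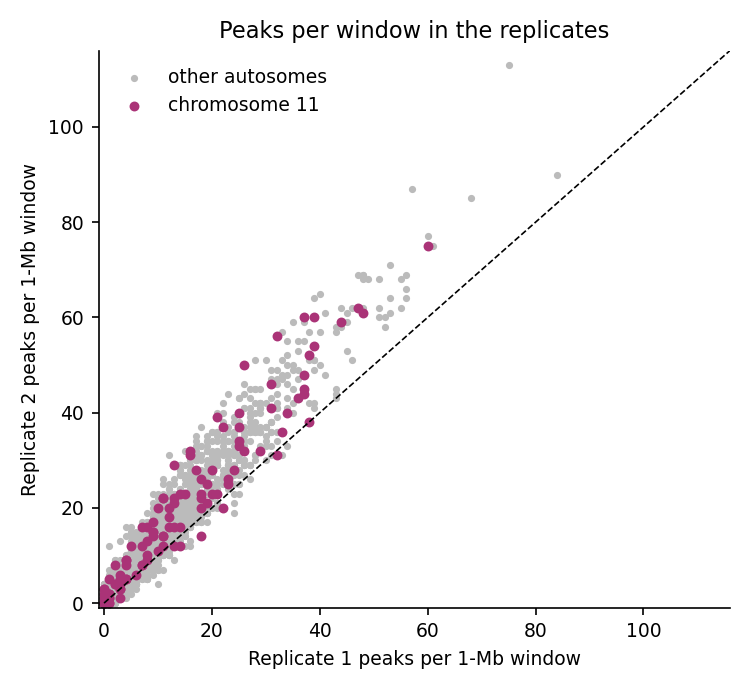
Peaks in each 1-Mb window in replicate 1 (horizontal) and replicate 2 (vertical), for chromosome 11 and the other autosomes, with a dashed line of equality. Most windows lie above the line, 91 of 115 on chromosome 11 and 1463 of 2263 on the others. The chromosome 11 windows fall within the cloud of the others.

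The read number over each summit was solved from the deposited fold and p-value. After division by ChIP depth it was higher in replicate 2 at 89.4% of the chromosome 11 regions, against 88.5% over all autosomes. The median ratio of replicate 2 to replicate 1 was 1.25, the same as the median of the other 18 autosomes. The log2 ratio had an SD of 0.29 across the regions. An exact binomial test around the median ratio, adjusted by the Benjamini-Hochberg method over all 17469 autosomal regions, called 0 regions of chromosome 11 (0% over all autosomes). At an unadjusted p under 0.05 it called 17, or 1.26%, against 1.3% over all autosomes. Against the plain depth ratio it called 0 (0.00572% over all autosomes), and 88 at an unadjusted p under 0.05, or 6.54%, against 6.29%. Such a test sets 1 library against another, at summits that are not fixed positions. It covered shared regions only, so the 181 and 924 chromosome 11 peaks without a partner did not enter it. Sites found in 1 list alone were thus left out beforehand. The few calls therefore cannot show how alike the replicates are. The median distance between the summits of a region was 97 bp.

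Control coverage, the caller's local background solved for each peak, was raised slightly more often on chromosome 11. Of the 1718 replicate 1 peaks, 894 lay above the genome-wide value, or 52.0% (49.7 to 54.4), where all autosomes gave 47.7%. In replicate 2 this held for 1054 of 2353 peaks, or 44.8% (42.8 to 46.8), against 41.9%. The mean difference from the other autosomes was 3.89 ± 1.10 percentage points (SD, n = 2; exact two-sided permutation p = 0.5). Chromosome 11 ranked 2 of 19 in both lists, after chromosome 8, where the share was 93.3% and 91.0%. Without chromosome 8 the other autosomes had 43.8% and 37.9%, and the difference was 8.20 and 6.92 percentage points. Higher control coverage lowers the fold of a peak with the same reads, and the median summit at shared regions rested on 24 and 32 reads on chromosome 11 against 23 and 31 elsewhere.

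Control coverage was highest in dense windows, on chromosome 11 and elsewhere. In windows with 1 to 4 shared regions it lay above the background at 36.2% (25.1 to 49.1) of the chromosome 11 peaks of replicate 1 and at 28.8% of those on other autosomes. That interval includes 28.8%, and in replicate 2 the shares were 29.1% (21.2 to 38.5) and 28.5%. In windows with 5 to 9 the replicate 1 shares were 48.3% (41.7 to 55.1) and 39.6%, and in replicate 2 they were 43.4% (37.9 to 49.0) and 35.8%. In windows with 10 to 19 the replicate 1 shares were 46.9% (42.8 to 51.1) and 48.5%, and 44.5% on the others without chromosome 8. The replicate 2 shares there were 40.5% (37.1 to 44.0) and 44.3%, and 40.2% without chromosome 8. In dense windows the replicate 1 shares were 57.7% (54.3 to 60.9) and 57.6%, and 53.6% on the others without chromosome 8. In replicate 2 dense windows gave 49.96% (47.0 to 52.9) on chromosome 11, 47.5% on the others and 42.7% without chromosome 8. The part of control coverage in the number of peaks was not tested.

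Set in windows of like density, chromosome 11 peaks in dense windows had folds and partner shares close to those of other autosomes. The classes count shared regions, which consist of partnered peaks, so partner shares within a class are partly set by the matching. Control coverage was higher on chromosome 11 in windows with 5 to 9 regions in both replicates. Width differed in some of the sparser windows. With chromosome 8 left out of the others, control coverage was higher on chromosome 11 in dense windows too. In dense windows the median fold at shared regions was 4.96 and 6.06 on chromosome 11, against 5.08 and 6.20 elsewhere. Partners were found for 90.2% (88.1 to 92.0) of the replicate 1 peaks there and 91.3% elsewhere, and for 63.8% (61.0 to 66.6) and 64.2% of the replicate 2 peaks. The median width of replicate 1 peaks there was 552.5 bp and 541 bp. It was 538 against 497 bp in windows with 10 to 19 regions, 477 against 477.5 bp in those with 5 to 9, and 557 against 411 bp in those with 1 to 4. In replicate 2 the widths were 526 against 520 bp, 508 against 490 bp and 432 against 439 bp in these classes, so the difference in the sparsest windows was not found there. In windows with 1 to 4 regions 47.6% (38.2 to 57.1) of 103 replicate 2 peaks had a partner, against 57.2% (55.4 to 59.0) elsewhere.

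**Figure D5:**
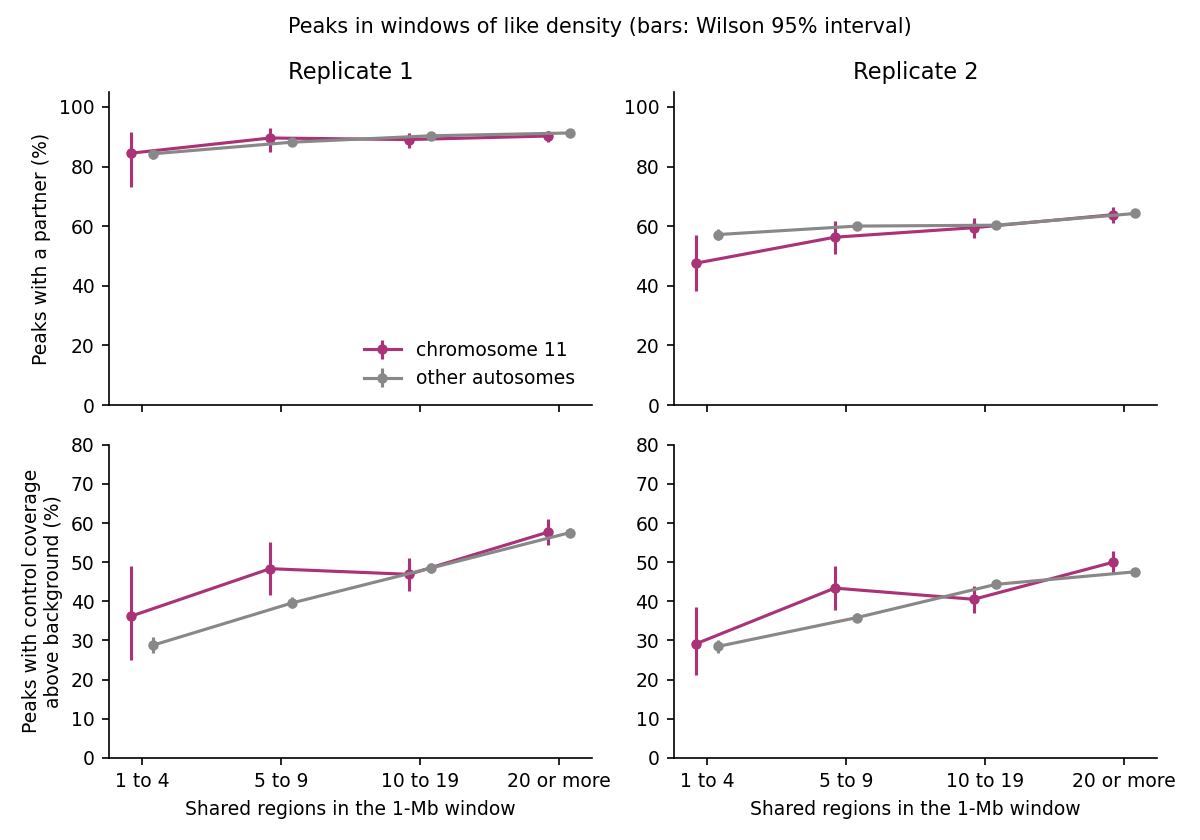
Share of peaks with a partner in the other replicate (top) and with control coverage above the genome-wide background (bottom), in replicate 1 (left) and replicate 2 (right), by the number of shared regions in the 1-Mb window, with Wilson 95% intervals. In dense windows chromosome 11 follows the other autosomes in partner share, at 90.2% and 91.3% in replicate 1. Classes count shared regions, which consist of partnered peaks, so the partner share is partly set by the class. Control coverage there is above background at 57.7% and 57.6% in replicate 1. The others include chromosome 8, without which they are at 53.6%.

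Peaks with control coverage of at least 2 times the background were rare on chromosome 11, as over all autosomes. They numbered 12 in replicate 1 (0.698%, against 1.09% over all autosomes) and 20 in replicate 2 (0.850%, against 1.12%). Chromosome 8 alone held 89 of the 231 such peaks of the other autosomes in replicate 1 and 101 of 319 in replicate 2. The lower shares on chromosome 11 are therefore no sign of a depletion. On chromosome 11 these peaks were also weak. Their median folds were 3.08 and 3.31. The highest control coverage of replicate 1 lay at 3093206 to 3093693, where 132 reads over 22.6 times the background gave a fold of 1.69. A second replicate 1 peak close by, at 3102092 to 3102450, had 4.11 times the background and overlapped the highest of replicate 2, at 3101935 to 3102457, with 4.31 times. Their folds were 2.78 and 3.30. Both positions are within the first 100 kb of peaks on the chromosome, ahead of the first full window. Others reached at most 3.14 times: a replicate 2 peak at 100302024 to 100302408 had 3.14 and that at 98884707 to 98885935 had 2.75, and a replicate 1 peak at 35612293 to 35612670 had 2.82.

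The peaks nearest to the limits of the stretch left out were these. At 96 Mb the last peaks kept had folds of 3.604 in replicate 1 and 3.10 in replicate 2, and the first left out had 2.82 and 4.64. At 98 Mb the last left out had 3.89 and 4.71, and the first kept had 5.64 and 9.14. The peaks kept at 98 Mb overlapped each other.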

How the data were processed

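CHD8 ChIP-seq was deposited as 1 peak list per ChIP sample, not pooled; no input table was analysed here. Bowtie2 2.1.0, MACS2 2.1.1 and mm9 are named per the submitters' processing notes, and libraries were tagmented on beads per the labels' protocols; the pairing of controls is not given in the sources used here. The authors deposited each peak's fold enrichment (a linear ratio), −log10 p-value and q-value at the summit, and score (10 times −log10 q, cut to a whole number). The smallest −log10 q was 1.32 and 1.31.

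Summit reads and local background were solved from fold and p by MACS2's formulas, fold = (scaled reads + 1)/(background + 1) and a Poisson tail, with a misfit in log10 p under 0.002 for all peaks. The scale of the ChIP library was 0.714 in replicate 2, where 78 peaks had more than 1 solution (9 on chromosome 11). ChIP depth was 3.44 and 3.56 reads per 200 bp. On simulated lists of 22706 and 31002 peaks made with the same formulas, 100% of the read numbers were recovered. That checks the solving alone and cannot show that the formulas hold for the deposited lists. Overlap was counted from 1 bp, and a shared region takes its values from the peak of best −log10 q in each list. Densities use the span from first to last peak, less 2 Mb on chromosome 11. A region's window is that of the midpoint between its summits.

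Regions were named by rule: the 10 best-ranked, the 3 widest, the 3 best without a partner and the 3 with the highest control coverage per list, the peaks at the limits, the 10 fullest windows with ties and runs of at least 3 empty windows. Members, rules and lists were chosen with earlier results of these data known. Gene lists, promoters and motifs were not analysed, lacking an annotation of mm9. Chromosomes' proximal and distal windows, chains and the comparison without chromosome 8 were added after values were seen. Python 3.11.15, numpy 2.4.6, pandas 2.3.3, scipy 1.17.1 and matplotlib 3.10.9 were used.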

Additional observations from a re-analysis of the deposited data

How the results depend on the processing

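Of 42 alternative values, 27 stayed within the counting interval or the SD over replicates and 15 moved beyond it. Where the range was the SD over replicates, the values of each replicate alone fell within it by construction. Those values are counted among the 27 but show nothing about stability. The density ratio of 1.63 stayed between 1.63 and 1.70 under 8 alternatives, and the share of empty windows, the ratio of summit reads and the likeness of the replicates also stayed. The share of dense windows depends on what is counted, at a fixed limit of 20: from 20.9% it went to 4.35% with the higher-scored 50% of the lists and to 10.4% with 50% reciprocal overlap, and with the peaks of 1 replicate alone to between 30.4% and 46.1%. The other autosomes had 8.48%, 1.90%, 3.58%, and 12.9% and 22.8%, lower each time. The share of gaps under 10 kb went from 28.4% to 21.1% with 50% reciprocal overlap, to 22.2% with regions under 1 kb apart joined, and to between 39.0% and 47.9% from 1 list alone, against 19.3%, 18.3%, 36.0% and 43.9% elsewhere. The difference in partnered peaks, 0.16 percentage points, was 1.81 in the higher-scored 50%, 1.004 with lists of equal length and -0.49 with 50% reciprocal overlap, so its sign depends on the setting. The ratio of median folds, 1.01, was 1.03 with 50% reciprocal overlap and 1.04 for depth-normalised summit reads. The difference in median width was 83.5 bp in the higher-scored 50%. The difference in control coverage was 7.56 percentage points without chromosome 8, an alternative added after the data were seen. The cause of these shifts was not tested. Depth limits single peaks: the weakest rested on 11 and 13 reads. No paired analysis was possible because the input samples have no list here and only 1 group was compared.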
